A study of Mus musculus with 6 samples.

Results

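Keratins, the intermediate filament proteins of epithelial cells, were followed in RNA sequencing libraries from mouse thymus. The members are the rows whose gene symbol is Krt followed by a number and at most 1 letter. They number 53 of the 22298 genes in the tables, and keratin-associated protein genes are not among them. The study compared C57BL/6 mice with loxP-flanked Tox alleles (Toxf/f, the controls) and Toxf/fCd4Cre mice, which carry the same alleles together with a Cre recombinase driven by Cd4 regulatory sequences, with 3 untreated libraries of each genotype. Replicate 1 of both genotypes came from animals aged 4 weeks and replicates 2 and 3 from animals aged 3 weeks. Since no library carried Cd4Cre with intact Tox alleles, loss of Tox and presence of Cre cannot be told apart. The labels do not say that each replicate is a separate animal, so the p-values measure the spread between these libraries, which may in part be technical. That spread also includes the age difference between replicate 1 and replicates 2 and 3, because the main fit held no term for age.

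The sample titles call the cells double-negative thymocytes and the protocol names sorted DN2 thymocytes, both of which are T cell precursors without surface CD4 and CD8. The libraries held between 14550593 and 16099023 estimated counts. Tox itself stood at 26.3 ± 1.35 FPKM (fragments scaled to transcript length and library size, SD, n = 3) in the controls and at 3.17 ± 0.62 FPKM in the Cd4Cre libraries. Cd8a, a coreceptor gene of later thymocytes, had 562 FPKM in the controls, and the epithelial adhesion gene Epcam had 25.6 ± 3.41 FPKM in the controls and 25.2 ± 1.49 FPKM in the Cd4Cre libraries. A sort of cells without CD8 thus gave abundant Cd8a transcripts, and every library held transcripts of epithelium. In bulk RNA, fewer cells of a type and less RNA per cell cannot be told apart, and this holds for every keratin below.

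Keratin filaments are built from pairs of an acidic type I and a basic type II protein. Simple epithelia use KRT8 with KRT18, basal cells of stratified epithelia use KRT5 with KRT14, and upper layers, hair and nails use further pairs. In the thymus, KRT8 and KRT18 are the keratins of cortical epithelium, while many medullary epithelial cells carry KRT5 and KRT14. Thymocytes are not known for keratin filaments.

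The 53 keratins took 0.0885% to 0.0996% of all counts in the controls and 0.11% to 0.123% in the Cd4Cre libraries, so the 2 groups did not overlap. Counts were high enough to be tested for 28 of them, 11 of type I, 16 of type II and Krt222, which was given no type. The other 25 stayed at 17 counts or fewer in every library. Only 4 of these reached 10 counts in any library, namely Krt33b, Krt73, Krt81 and Krt87, and 2 (Krt40 and Krt88) were at 0 counts in all libraries. Of 23 hair and nail keratins, 4 were tested. These were Krt71, Krt75, Krt83 and Krt84, at mean FPKM values of 0.143 to 0.633 in the controls.

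The 6 most abundant keratins in the controls, in falling order of FPKM, were Krt18 (237 ± 15.7 FPKM, n = 3), Krt8 (164 ± 7.71), Krt17 (62.5 ± 3.58), Krt5 (30.2 ± 4.27), Krt14 (14.7 ± 2.76) and Krt7 (9.21 ± 0.34). Each stood apart from the next gene in all 3 control libraries. In the Cd4Cre libraries Krt14 and Krt7 overlapped at 9.39 ± 1.74 and 9.75 ± 1.25 FPKM, and the order above them was the same. Below these, Krt10 (2.62 ± 0.34 FPKM in the controls) and Krt19 (2.39 ± 0.193) overlapped each other, as did neighbours among Krt16, Krt23, Krt20 and Krt77 between 1.8 and 1.36 FPKM. Ranked by mean FPKM over all 22298 genes, Krt18 was number 224, Krt8 number 352 and Krt17 number 1381. FPKM divides by transcript length, and the values of Krt7 correspond to 4091 bases against 1437 for Krt18. Levels of different genes are compared here on the FPKM scale only.

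**Figure D1:**
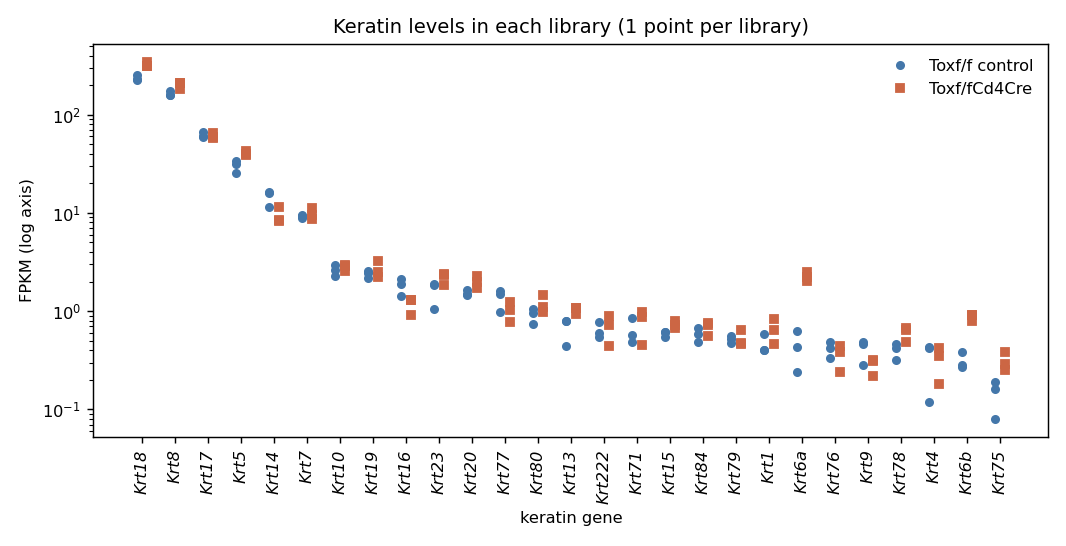
FPKM (log axis) of the tested keratin genes in each of the 6 libraries, sorted by the control mean, with Toxf/f controls as circles and Toxf/fCd4Cre libraries as squares. Krt18 lies highest at 237 FPKM in the controls, Krt6a and Krt6b are the genes with the widest gap between genotypes, and Krt83 is left out because 1 library listed it at 0.

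Between the genotypes, 6 of the 28 tested keratins passed an adjusted p of 0.05 in edgeR's quasi-likelihood test. Krt18, Krt8, Krt5, Krt6a and Krt6b were higher in the Cd4Cre libraries and Krt14 was lower. These 6 are 21.4% of the tested keratins, against 4.11% of all 13934 genes tested (1.15% higher and 2.96% lower). The count minimum had to be met in 3 libraries, and Krt6a met it in 2 controls, Krt6b in 1 and Krt75 in 0, so these genes entered the test through the Cd4Cre libraries and their difference was favoured by the filter. Among the 21 keratins above the count minimum in all 6 libraries, 4 passed (19%), 3 higher and 1 lower. In CPM (counts scaled to library size) the groups did not overlap for 12 of the 28 (10 higher and 2 lower, 42.9%), compared with 22.0% of all genes tested. Among the 21 keratins above the count minimum in all 6 libraries, the groups did not overlap for 9 (42.9%). The median log2 fold change was 0.30 over the 28 keratins and 0.01 over all genes, and 20 keratins lay above 0 and 8 below. All values for the 28 include Krt6a, Krt6b and Krt75, whose difference was favoured by the filter.

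**Figure D2:**
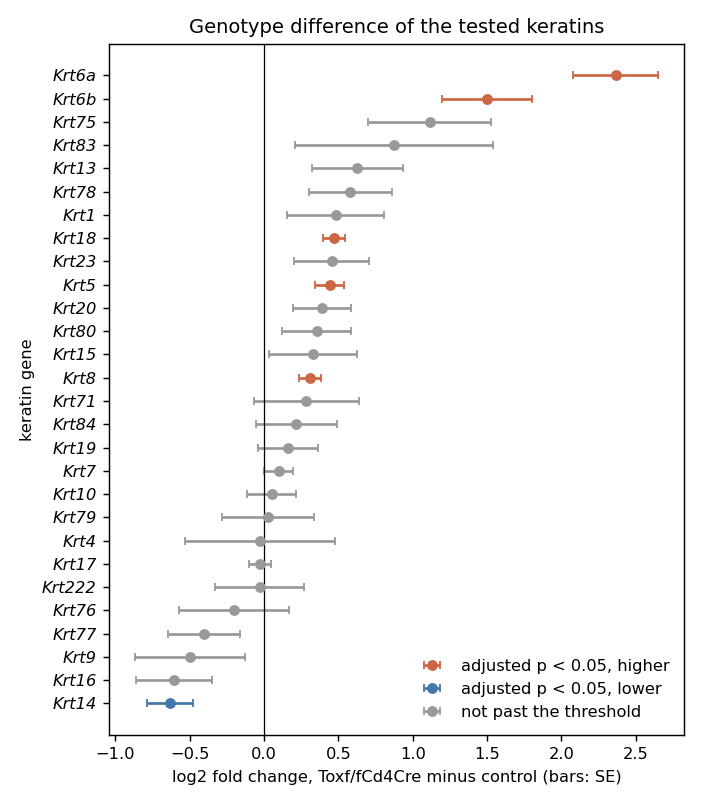
Log2 fold change of each of the 28 tested keratins (Toxf/fCd4Cre minus Toxf/f) with its standard error, coloured by whether it passed an adjusted p of 0.05 in edgeR's quasi-likelihood test. Krt6a (2.36) and Krt6b (1.499) lie farthest to the right and Krt14 (-0.63) farthest to the left, and grey points did not pass.

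Among keratins of simple epithelia, 2 of 6 rose and 4 did not pass the test, with a median log2 fold change of 0.35. Krt18, the type I partner of Krt8, stood at 255, 227 and 228 FPKM in the controls and at 345, 315 and 315 FPKM in the Cd4Cre libraries. All 3 Cd4Cre libraries lay above all 3 controls, and the log2 fold change of 0.47 (SE 0.07) had an adjusted p of 0.0032 (edgeR quasi-likelihood). The call ended in the 3-week libraries alone (adjusted p = 0.11, 2 against 2 libraries), where the log2 fold change was 0.48. The 4-week libraries, 1 of each genotype, allow no test by themselves.

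Krt8, which forms filaments with KRT18, stood at 173, 160 and 159 FPKM in the controls and at 213, 209 and 185 FPKM in the Cd4Cre libraries. The groups did not overlap, but Cd4Cre replicate 3 lay closest to the controls. Its log2 fold change was 0.31 (SE 0.07) and its adjusted p of 0.04 was close to the threshold. The Krt8 call held in only 4 of 14 alternative fits. It ended when any control, or Cd4Cre replicate 1 or 2, was left out (adjusted p of 0.057 to 0.22), with a minimum mean of 5 CPM (0.052), with limma on FPKM values, with the replicate block (adjusted p = 0.074) and in the 3-week libraries alone. Of the 50-base stretches in its longest transcript, 26.9% also occur in the pseudogene Krt8-ps, so reads may be shared with that copy. The deposited counts of Krt8 were whole numbers in all 6 libraries, and sharing of its reads was not tested.

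The ratio of Krt18 to Krt8 in FPKM was 1.47, 1.41 and 1.43 in the controls and 1.62, 1.51 and 1.71 in the Cd4Cre libraries. It was higher in each Cd4Cre library than in any control (1.44 ± 0.0292 and 1.61 ± 0.0971, n = 3), with control replicate 1 and Cd4Cre replicate 2 closest to each other. No test was run on ratios of keratins.

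Krt7, a keratin of ducts and glands, was measured at 9.51, 8.84 and 9.27 FPKM in the controls and 11.1, 9.45 and 8.68 FPKM in the Cd4Cre libraries. The groups overlapped, and the log2 fold change of 0.10 (SE 0.10) did not pass. Krt19, a small type I keratin of simple epithelium, was low at 2.39 ± 0.193 and 2.66 ± 0.542 FPKM and also overlapped. Krt20, a keratin of the gut lining, had 1.54 ± 0.0964 and 2 ± 0.265 FPKM without overlap (log2 fold change 0.39, SE 0.19), and Krt23 had 1.6 ± 0.478 and 2.18 ± 0.305 FPKM with overlap. Neither passed the test.

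Krt8 and Krt18 are next to each other on chromosome 15 in RefSeq, with no protein-coding gene between them, and Krt18 is a type I gene beside the type II cluster. Their promoters are shown because the 2 neighbours rose together, beside that of Krt5, which rose as well, and that of Krt10, a tested keratin that did not pass. Each line gives the 150 bases before the RefSeq start site (GRCm38.p6), 5′ to 3′ on the gene's strand, and capitals mark TATAAA, the letters of a TATA box. The windows are chr15:102004343-102004492 (minus strand) for Krt8, chr15:102028066-102028215 (plus strand) for Krt18, chr15:101712906-101713055 (minus strand) for Krt5 and chr11:99389365-99389514 (minus strand) for Krt10.
Krt8: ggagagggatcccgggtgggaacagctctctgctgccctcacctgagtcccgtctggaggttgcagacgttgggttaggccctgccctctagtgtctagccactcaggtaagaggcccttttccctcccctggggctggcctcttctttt
Krt18: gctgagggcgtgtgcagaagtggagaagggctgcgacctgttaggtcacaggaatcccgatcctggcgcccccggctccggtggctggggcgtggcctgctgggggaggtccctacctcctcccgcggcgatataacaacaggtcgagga
Krt5: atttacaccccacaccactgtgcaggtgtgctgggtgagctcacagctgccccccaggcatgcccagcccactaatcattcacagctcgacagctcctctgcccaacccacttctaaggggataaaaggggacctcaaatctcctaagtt
Krt10: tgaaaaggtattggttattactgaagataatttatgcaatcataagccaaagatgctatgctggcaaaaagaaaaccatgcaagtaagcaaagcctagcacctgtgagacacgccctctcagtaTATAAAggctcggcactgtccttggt

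Promoter rows were found by symbol for 36 of the 53 keratins. TATAAA, searched on both strands in the 250 bases before the start, was present for 17 of the 36, compared with 12.4% of all 32851 promoters in the table. It was present for 12 of 19 keratins too low to test and for 5 of 17 tested keratins, among them 2 of the 9 with a mean of at least 1 FPKM. The letters are absent from the windows of Krt8, Krt18 and Krt5. They are also absent for Krt14, which fell, and for Krt7, Krt9, Krt13, Krt23, Krt75, Krt77, Krt78 and Krt79, which did not pass. The 5 tested keratins with them were Krt10, Krt20, Krt71, Krt76 and Krt84, which did not pass either. A link between these letters and the calls was not tested. Of other motifs, CCAAT was found in 15 of 37 keratin promoters (33.8% of all promoters), GGGCGG in 2 (32.7%) and the AP-1 motif TGANTCA in 2, both of Krt13 (6.75%). Overlaps between motifs were not removed, and a match is a run of letters only. For Krt14, Krt32, Krt40, Krt42, Krt72 and a Krt13 row, bases just after the RefSeq start were not found in the longest coding transcript of GENCODE M21. Their windows may therefore belong to another start site than that of the counted transcript.

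Of 4 basal keratins, Krt5 rose, Krt14 fell and 2 did not pass. Krt5, the type II keratin of basal cells, was at 33.9, 31.3 and 25.5 FPKM in the controls and at 43.2, 39.2 and 39.7 FPKM in the Cd4Cre libraries. Control replicate 3 was the lowest library and all Cd4Cre libraries lay above the controls. The log2 fold change of Krt5 was 0.44 (SE 0.09), with an adjusted p of 0.022 in edgeR's quasi-likelihood test. Of its 50-base stretches, 8.52% occur in other genes, mainly Krt6a (6.98%), and its count in Cd4Cre replicate 2 was not whole (1385.78). The call ended without control replicate 2 or 3 or Cd4Cre replicate 1 (adjusted p of 0.069, 0.075 and 0.11), with limma on FPKM values and in the 3-week libraries alone.

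Krt14, the type I partner of Krt5, moved the other way, from 16.5, 16 and 11.5 FPKM in the controls to 11.4, 8.41 and 8.36 FPKM in the Cd4Cre libraries. Control replicate 3 and Cd4Cre replicate 1 were nearly level, and no other pair of libraries came as close across the groups. The log2 fold change was -0.63 (SE 0.15), with an adjusted p of 0.044 in edgeR's quasi-likelihood test. This call ended in 8 of 14 alternative fits, among them those without control replicate 1 or 2 (adjusted p = 0.18 each) and without Cd4Cre replicate 2 or 3 (0.093 and 0.051). Krt14 shares 14.4% of its 50-base stretches with other genes, mainly Krt16.

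The 2 partners therefore stood in a different ratio in each genotype. Krt14 to Krt5 in FPKM was 0.487, 0.512 and 0.451 in the controls and 0.264, 0.215 and 0.21 in the Cd4Cre libraries. The means were 0.483 ± 0.0308 and 0.23 ± 0.0299 (n = 3), a difference of -1.07 on the log2 scale, and the groups lay far apart relative to their spread. Without any 1 library the difference kept its sign and moved by less than the replicate SD.

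Krt17, a type I keratin of basal and appendage epithelium, was the third most abundant keratin and did not pass the test. It stood at 66.6, 60.8 and 60 FPKM in the controls and at 64.6, 59.4 and 58.5 FPKM in the Cd4Cre libraries, with overlap and a log2 fold change of -0.03 (SE 0.07). Beside higher Krt18, Krt8 and Krt5, its share of the summed keratin FPKM was 11.5%, 11.5% and 11.7% in the controls and 9.03%, 8.95% and 9.1% in the Cd4Cre libraries. Krt15, a keratin of epithelial stem and progenitor cells, was low (0.587 ± 0.0404 and 0.733 ± 0.0651 FPKM), without overlap and without a call.

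**Figure D3:**
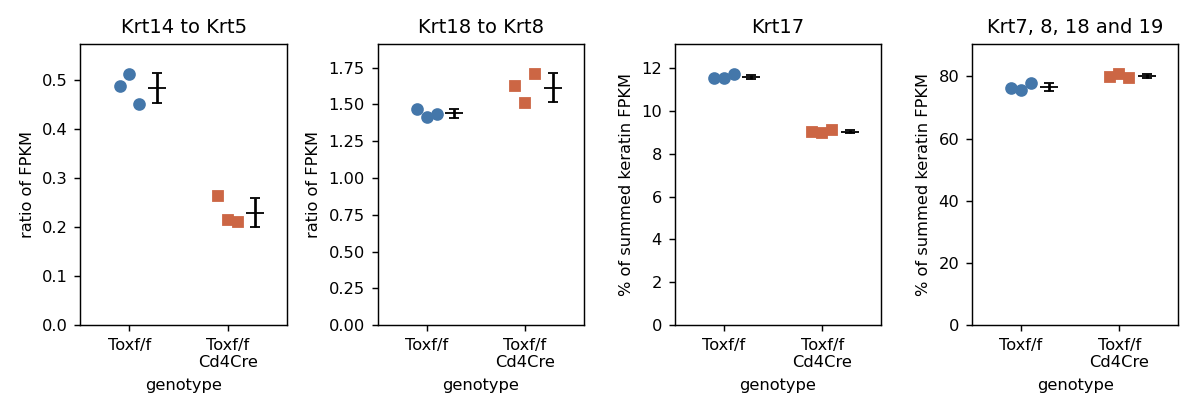
Ratios of FPKM (Krt14 to Krt5 and Krt18 to Krt8) and shares of the summed keratin FPKM (Krt17, and Krt7, Krt8, Krt18 and Krt19 together) in each library, with the mean and SD of 3 libraries beside the points. All axes start at 0. The Krt14 to Krt5 ratio is 0.483 in the controls and 0.23 in the Cd4Cre libraries, and the groups do not overlap in any of the 4 panels.

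Of 16 keratins of upper stratified layers, 13 were tested, 2 rose and 11 did not pass. Krt6a, a type II keratin induced in wounded and hyperproliferative epithelium, was at 0.43, 0.24 and 0.63 FPKM in the controls (15, 8 and 21.7 counts) and at 2.48, 2.04 and 2.24 FPKM in the Cd4Cre libraries (88.9, 74.9 and 74.4 counts). Its rise of 2.36 on the log2 scale (SE 0.29, adjusted p = 0.00053 in edgeR's quasi-likelihood test) was the highest of the tested keratins. The call held in all 13 alternative fits that tested the gene. Apart from the fit without a filter, these used a count filter of the kind that Krt6a had passed through the Cd4Cre libraries. Their agreement is therefore not independent of that filter. A minimum mean of 5 CPM removed it, and on the log2(FPKM + 1) scale, which compresses low values, the difference was 1.19.

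Krt6b, its close copy, rose from 0.38, 0.28 and 0.27 FPKM (13, 9 and 9.3 counts) to 0.91, 0.79 and 0.91 FPKM (32.1, 28.3 and 29.6 counts), with a log2 fold change of 1.499 (SE 0.30, adjusted p = 0.016, edgeR quasi-likelihood). Both genes were low, and each Cd4Cre library lay above each control. The Krt6b call ended without control replicate 2 or 3 or Cd4Cre replicate 1 (adjusted p of 0.089, 0.07 and 0.075) and in the 3-week libraries alone, and the difference was 0.51 on the log2(FPKM + 1) scale.

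The 2 copies cannot be counted fully apart. Their coding sequences are identical at 1625 of 1662 aligned bases (97.8%), and 49.5% of the 50-base stretches of Krt6a and 50.1% of those of Krt6b occur in another gene. The deposited counts of both were not whole numbers in 4 libraries, so reads had been divided among genes. Krt5, at 850 to 1494 counts per library, also shares 50-base stretches with Krt6a. Whether its reads entered the counts of the 2 copies was not tested. The coding stretch from base 25 to base 144 of each gene is shown (GENCODE M21, both genes on chromosome 15, 5′ to 3′), with the 1 differing base in capitals. It was picked as the first 120-base stretch without gaps that had the fewest differences, but at least 1. The stretch is therefore more alike than the coding sequences as a whole.
Krt6a: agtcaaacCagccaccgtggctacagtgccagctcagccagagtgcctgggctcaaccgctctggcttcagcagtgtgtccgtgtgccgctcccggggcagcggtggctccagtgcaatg
Krt6b: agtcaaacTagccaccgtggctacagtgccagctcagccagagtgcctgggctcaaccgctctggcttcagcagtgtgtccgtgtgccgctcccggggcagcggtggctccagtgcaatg

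Krt16, the type I keratin that pairs with the KRT6 proteins, did not rise with them. It was at 1.87, 2.11 and 1.43 FPKM in the controls and at 1.3, 0.91 and 1.31 FPKM in the Cd4Cre libraries. All Cd4Cre libraries lay below the controls, but the difference of -0.61 on the log2 scale (SE 0.25) did not pass, with an adjusted p of 0.26 from edgeR's quasi-likelihood test. Of its 50-base stretches, 37.6% occur in other genes.

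The differentiation keratins of skin and of the mouth and oesophagus showed no call. Krt10, made by suprabasal cells of skin, was at 2.62 ± 0.34 and 2.82 ± 0.203 FPKM, and its partner Krt1 at 0.463 ± 0.11 and 0.643 ± 0.185 FPKM, both with overlap. Krt13, a keratin of the oral and oesophageal lining, was at 0.673 ± 0.202 and 1.03 ± 0.0781 FPKM without overlap (log2 fold change 0.63, SE 0.31), and its partner Krt4 at 0.323 ± 0.176 and 0.317 ± 0.123 FPKM with overlap. Krt78 was at 0.4 ± 0.0721 and 0.597 ± 0.102 FPKM without overlap (0.58, SE 0.28), and Krt80 at 0.92 ± 0.164 and 1.17 ± 0.25 FPKM with overlap. Krt76, Krt77 and Krt79 and the palm and sole keratin Krt9 overlapped, with log2 fold changes of -0.20, -0.40, 0.02 and -0.50. Among hair keratins, Krt75 was at 0.16, 0.19 and 0.08 FPKM in the controls and at 0.29, 0.38 and 0.25 FPKM in the Cd4Cre libraries (log2 fold change 1.11, SE 0.41, adjusted p = 0.20, edgeR quasi-likelihood). It was under the count minimum in every control. Krt71, Krt83 and Krt84 overlapped, and so did Krt222 (0.637 ± 0.119 and 0.683 ± 0.227 FPKM).

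Summed over classes, Krt7, Krt8, Krt18 and Krt19 reached 440, 398 and 399 FPKM in the controls and 571, 536 and 512 FPKM in the Cd4Cre libraries, without overlap. Their share of the summed keratin FPKM was 76.6% ± 1.25 in the controls and 80.1% ± 0.58 in the Cd4Cre libraries (n = 3), also without overlap. Krt5, Krt14 and Krt15 together had 45.5 ± 7.03 and 50.8 ± 3.82 FPKM and overlapped, since Krt5 was higher and Krt14 lower. The stratified class had 10.9 ± 1.17 and 13.5 ± 1.48 FPKM without overlap, and its share of 2.03% ± 0.173 and 2% ± 0.248 overlapped. Without Krt6a and Krt6b, which entered the test through the Cd4Cre libraries, its sum was 10.2 ± 1.32 and 10.35 ± 1.26 FPKM and overlapped. The ratio of the simple to the basal class was 9.19 ± 1.26 and 10.6 ± 0.384, with overlap because of control replicate 3. Type I to type II keratins stood at a ratio of 1.54 ± 0.025 and 1.56 ± 0.0704, so the type I sum (327 ± 21.9 and 409 ± 22.7 FPKM) and the type II sum (212 ± 12.2 and 264 ± 17.2 FPKM) were higher by a like factor in the Cd4Cre libraries.

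Markers of the epithelial compartments were tested in the same fit, where 1.15% of all genes were higher and 2.96% lower. Of 12 cortical epithelial genes, 5 rose and 7 did not pass (median log2 fold change 0.23), and their summed FPKM was 2145 to 2331 in the controls and 2599 to 2941 in the Cd4Cre libraries. The 4 with the smallest p were Enpep, an aminopeptidase (0.67), Psmb11, a subunit of the cortical proteasome (0.48), Cxcl12, a chemokine (0.39), and Tbata (0.52), and the fifth was Prss16, a thymic protease (0.38). Of 15 medullary epithelial genes, 7 fell and 8 did not pass (median -0.52), and their summed FPKM was 322 to 395 in the controls and 218 to 263 in the Cd4Cre libraries. They included Cd80 (-0.95), the chemokine gene Ccl21a (-0.64), whose counts were also divided among genes, and Ccl19 (-0.71). Cd80, Relb and Spib on this list are also made by dendritic or B cells, and Aire, which drives expression of tissue antigens, was at 8.21 ± 1.85 and 5.67 ± 0.605 FPKM and did not pass (adjusted p = 0.073, edgeR quasi-likelihood). Counts of called genes on the cortical list were 3, 2 and 3 when control replicate 1, 2 or 3 was left out and 3 without Cd4Cre replicate 1, and on the medullary list 3 and 4 without control replicate 1 and 2. No listed gene of either compartment was at 0 in all libraries, and their part in the keratin differences was not tested. Whether cells other than epithelium added to the transcripts of the cortical list was not tested either.

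**Figure D4:**
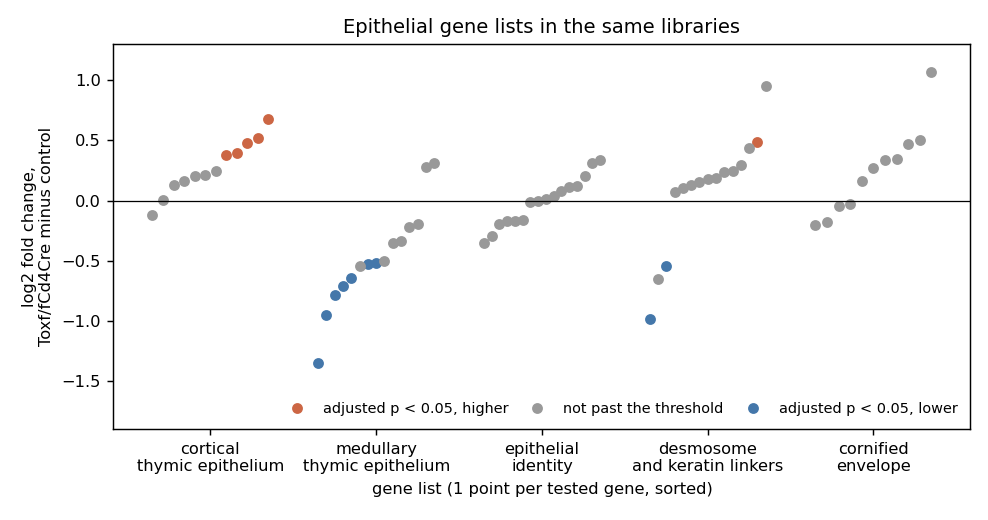
Log2 fold change (Toxf/fCd4Cre minus Toxf/f) of each tested gene on 5 epithelial lists, sorted within a list and coloured by the call of edgeR's quasi-likelihood test. The called cortical genes lie above 0 (5 of 12) and the called medullary genes below 0 (7 of 15), while no gene of the epithelial identity or cornified envelope lists passed.

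The lists of general epithelial genes held no call, and whether they differ from the compartment lists was not tested. Of 16 epithelial identity genes (cadherin, claudin, protease and splicing factor genes, with Epcam), 0 passed at a median log2 fold change of 0.005, with summed FPKM of 80.7 to 97.5 and 85.4 to 96.5. Of 14 tested epithelial transcription factors, 0 passed (median 0.05), including Trp63, which controls basal keratins (8.21 ± 0.314 and 7.58 ± 2.03 FPKM), and Foxn1, the thymic epithelial factor (9.35 ± 0.642 and 10.1 ± 1.43 FPKM). Cornified envelope genes, which are expressed with keratins of the upper layers, had 0 called of 11 tested (median 0.27).

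Proteins that anchor keratin filaments to cell junctions are encoded by the desmosome genes. Of these, 15 were tested, 1 rose, 2 fell and 12 did not pass (median 0.18). Over all genes tested, 1.15% were higher and 2.96% lower. Dsg1a and Dsg2, desmosomal cadherin genes, fell by 0.99 and 0.55 on the log2 scale, while Pkp1, a plakophilin gene of stratified epithelium, rose by 0.48. Leaving out any control, or Cd4Cre replicate 1 or 2, ended the Pkp1 call, and 4 genes of the list rose without Cd4Cre replicate 3. Counts of Dsg1a were not whole, so its reads were shared with other genes. Dsp, the plakin that binds keratins, was at 15.8 ± 0.666 and 21.4 ± 4.19 FPKM without overlap (adjusted p = 0.072, edgeR quasi-likelihood). Of 9 hemidesmosome and plectin genes, 0 passed (median -0.04). Of 13 tested other intermediate filament genes, Vim, the vimentin gene of mesenchymal and blood cells, fell from 102 ± 3.77 to 61.4 ± 7.72 FPKM, and 12 did not pass.

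Lists of other cell types gave 0 calls among 9 fibroblast and stroma genes, 0 among 7 endothelial genes and 1 among 10 thymocyte genes (Ptcra, higher), against 4.11% of all genes called in either direction. The thymocyte list had 2 called genes without Cd4Cre replicate 2 or 3. Of 8 B cell genes, 4 fell, among them Igkc, Ms4a1 and Blnk, and of 10 dendritic cell and macrophage genes, 2 fell, Ccr7 and Lyz2. On the latter list 8 genes did not pass, and the list median of the log2 fold change was -0.25. The macrophage genes Adgre1 (0.27) and Cd68 (0.28) were among the 8, with every Cd4Cre library above every control in CPM. The summed FPKM of the B cell list was 158 to 173 in the controls and 43 to 55.6 in the Cd4Cre libraries. That of the dendritic cell and macrophage list was 357 to 407 and 185 to 201. The thymocyte list had 4402 to 4515 and 4734 to 4789. Igkc alone had 119 ± 7.14 and 15.2 ± 0.363 FPKM, and Lyz2 alone 258 ± 25.1 and 102 ± 12.1 FPKM. These 2 genes carried most of the fall in the sums of their lists. The B cell list had a median log2 fold change of -0.94. On it Cd79b (0.15) did not pass and was higher in CPM in each Cd4Cre library than in any control. Whether the make-up of the sorted cells had a part in the keratin differences was not tested.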

How the data were processed

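RNA was measured in 6 libraries. Per the file headers, the authors deposited estimated counts and FPKM side by side for every gene. Tools named in the submitters' processing notes are fastp 0.18.0, HISAT2 and StringTie 1.3.1; for the counting program, the genome build, the annotation and strand, nothing is given in the sources used here. Between 9.27% and 9.87% of the counts in a library were not whole, and counts were rounded. The filter was filterByExpr at its minimum count of 10 and total of 15, and scaling was by TMM. Tests were two-sided quasi-likelihood tests in edgeR 4.0.16 (R 4.3.3), Benjamini-Hochberg adjusted over all 13934 genes tested. SE were derived from the test's F. FPKM values served for levels and ratios, and log2 fold changes come from counts. An exact permutation test of 3 against 3 libraries cannot go below 0.1, and none was used. The fit was tested on simulated data.

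The members and the lists were chosen with earlier results of these data known. Every tested keratin is named, and of other lists up to 4 called genes with the smallest p; further genes were named after their values were seen. Values of some list genes are not reported here. Promoter sequences are from RefSeq (GRCm38.p6) and shared 50-base stretches from GENCODE M21, matched by symbol and by gene identifier. Alternatives were other filters, DESeq2 1.42.0, limma 3.58.1 on log2(FPKM + 0.1) and log2(FPKM + 1), a replicate block, the 3-week libraries alone and leaving out each library.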

Additional observations from a re-analysis of the deposited data

How the results depend on the processing

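Of the 6 keratin calls, 2 were made with a minimum mean of 5 CPM (Krt6a and Krt6b were then not tested), 3 with limma on log2(FPKM + 0.1) and 3 on log2(FPKM + 1), and 1 in the 3-week libraries alone; leaving out 1 library gave 2 to 5. Over all genes, 572 calls became 151 in the 3-week libraries alone and 298 to 1269 when 1 library was left out (309 and 298 without control replicate 1 and 2, 330 and 1269 without Cd4Cre replicate 1 and 3). DESeq2 called 674 genes and 6 keratins. With the replicate block, 440 genes and 5 keratins passed. Deviations of same-numbered libraries from their group means had correlations of 0.08, -0.11 and -0.04. With 3 libraries per group, such values cannot settle whether the numbers pair the libraries. Same-numbered libraries of the 2 genotypes do have the same age. No keratin call changed direction: of 371 values of tested keratins under the 14 alternatives (with a minimum mean of 5 CPM only 7 keratins were tested), 342 stayed on the same side of the threshold and 29 calls were lost. These values include the 22 keratins not called in the main fit, which had no call to lose. All lost calls were of the 6 called keratins. Alternatives that kept and lost the call numbered 4 and 10 for Krt8, 6 and 8 for Krt14, and 8 and 6 for Krt5. For Krt6b they numbered 9 and 4, for Krt18 13 and 1, and for Krt6a 13 and 0. Krt6a and Krt6b had entered the main test through the Cd4Cre libraries, and all alternatives but the fit without a filter used a count filter. The class sums and keratin ratios moved by less than the replicate SD with summed CPM and when each library was left out. The log2 difference of the stratified class sum was 0.30, and 0.0211 without Krt6a and Krt6b, an alternative added after seeing the data. Counts of list genes without each library were added after seeing the data. Low counts limit Krt6a, Krt6b and the hair keratins.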
